A study of Mus musculus with 4 samples.

Results

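The BCL2 family genes described here are 10 named genes of mitochondrial cell death, taken by symbol from the expression tables of mouse Th2 cells. All 10 symbols were found, each on a single line, among 23283 gene symbols in all. They are the survival genes Bcl2, Bcl2l1 and Mcl1, the pore-forming effectors Bax and Bak1, and the BH3-only genes Bcl2l11, Bbc3, Pmaip1, Bid and Bmf. Each had a mean of at least 1 FPKM over the libraries (a level that is scaled both for transcript length and for sequencing depth), so 10 of 10 were compared.

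Th2 cells are the CD4 helper T cells that make IL-4, IL-5 and IL-13. CD4 T cells from the spleens of C57BL/6 mice were grown under Th2 conditions with 15 ng/ml IL-2 and 10 ng/ml IL-4. They carried wild-type Menin (WT) or were a Menin knockout (KO). The 5-day groups were taken after this stimulation for 5 days. Those labelled as 3 weeks were given a further 2 days without added cytokine and then 5 days of restimulation through the T cell receptor by immobilized antibody, in the presence of IL-2 and with IL-4 blocked by antibody. Such steps fall short of 3 weeks, and the remaining time is not described. Each of the 4 groups held 1 library, so no value has a replicate error and no difference was tested. The sources used here do not say how Menin was deleted, what drove any Cre, or whether cells of several mice were pooled.

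Survival proteins of the BCL2 family sit on the outer mitochondrial membrane and hold the effectors in check. BH3-only proteins bind the survival proteins, and some of them the effectors, and so allow Bax and Bak1 to open that membrane, after which cytochrome c is released and caspases are switched on. In T cells, cytokines of the IL-2 receptor family are known to maintain Bcl2, Bcl2l1 and Mcl1, and Bcl2l11 (Bim) is known for the death of T cells after a response.

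Men1, which encodes Menin, stood at 32.8 FPKM (WT) and 10.3 FPKM (KO) at 5 days and at 25.4 FPKM (WT) and 5.88 FPKM (KO) at 3 weeks, and so was lower in both KO libraries. Depth inferred from the steps between low FPKM values ranged from 20.7 to 23.6 M reads. The T cell markers were abundant (summed FPKM of 8 markers from 1971 to 3049), and Gata3, the defining Th2 transcription factor, stood at 72.8, 69.8, 93.8 and 45.9 FPKM in the order WT and KO at 5 days, then WT and KO at 3 weeks. The 4 Th2 markers summed to 81.8, 85.1, 316 and 93.8 FPKM in that order. WT 3-week stood apart in this sum, mainly through the cytokine genes Il5 (0.971, 1.91, 95.1 and 22.4 FPKM) and Il13 (1.62, 3.68, 105 and 19.1 FPKM). Of the myeloid and dendritic list, 6 of 7 markers were matched, and their summed FPKM was 6.02 in WT and 31.0 in KO at 5 days, and 0.898 in WT and 88.2 in KO at 3 weeks. Most of this sum was the Fc receptor gene Fcgr3. The integrin genes Itgam and Itgax and the coreceptor gene Cd14 were also higher in KO, at 0.0283, 0.0497 and 0.0978 FPKM in WT 3-week against 4.75, 8.63 and 2.03 FPKM in KO 3-week, and Itgax at 0.0501 against 2.45 FPKM at 5 days. The macrophage genes Lyz2 and Csf1r were at 0.154 FPKM or below in every library. Lyz2 was listed at 0 in KO 3-week and Csf1r in both 3-week libraries. The 5 NK cell markers summed to 0.321, 2.24, 0.0174 and 2.42 FPKM in the same order, with Ncr1 listed at 0 in both WT libraries. The 5 mast cell and basophil markers summed to 14.6, 25.0, 10.5 and 18.3 FPKM, mostly from Cpa3, with Ms4a2 listed at 0 in every library. Cpa3 itself was 10.2 FPKM in both 3-week libraries. Mcpt8 was higher in KO at both times, at 0.0754, 2.63, 0.266 and 7.93 FPKM in the same order. B cell markers summed to at most 2.77 FPKM, CD8 markers to at most 5.70 FPKM and the 2 matched erythroid markers to at most 8.86 FPKM. In bulk RNA, fewer cells of a type and less RNA per cell cannot be told apart, and the part of these markers in the results below was not tested.

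Menin-knockout cells had less RNA of the survival genes Bcl2 and Bcl2l1 and more RNA of the BH3-only genes Bmf and Bcl2l11 than WT cells. Bcl2 and Bmf stood apart between the genotypes at both culture times, Bcl2l1 and Bcl2l11 mainly at 3 weeks. Mcl1, the most abundant survival gene, was somewhat higher in KO, and Bak1, Bid and Pmaip1 were near equal. The effector gene Bax was lower in KO, more so at 3 weeks, and Bbc3 was near equal at first and higher in KO at 3 weeks. In what follows the KO level is given as a percentage or multiple of WT on the plain FPKM scale, with a 95% counting interval that comes from the reads each value implies (exact Clopper-Pearson) and covers counting error only. The reads were counted for the shortest coding transcript of each gene, and a longer one would give a narrower interval.

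**Figure D1:**
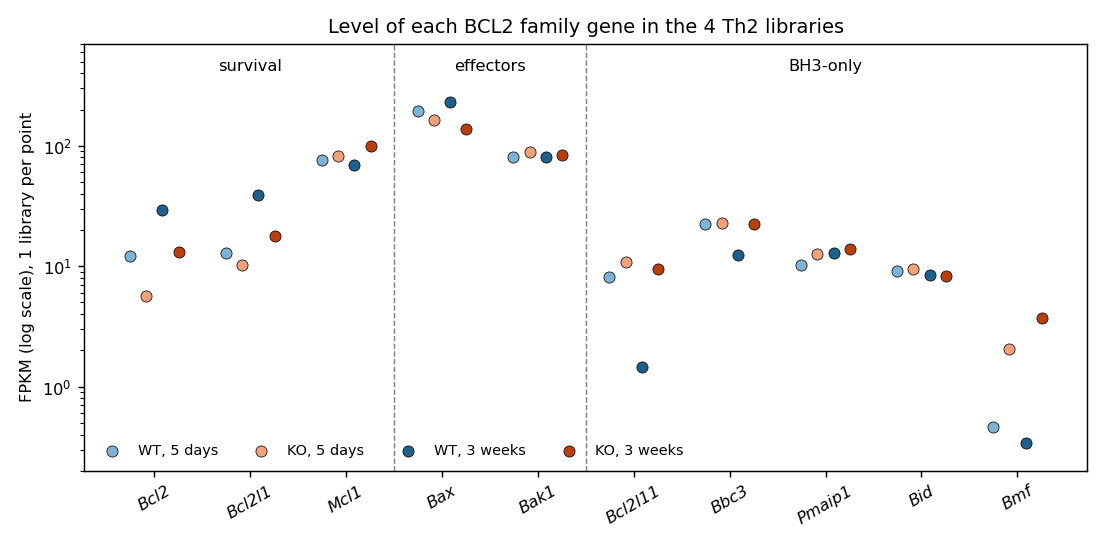
FPKM on a log axis for each of the 10 genes (columns, grouped by role), with 1 point per library and no error bar because each group held 1 library. Bcl2 and Bcl2l1 were highest in WT 3-week, at 29.2 and 38.8 FPKM, the library in which Bcl2l11 was lowest, at 1.47 FPKM.

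Bcl2, the founding survival gene of the family, measured 12.1 FPKM in WT cells and 5.69 in KO cells after 5 days, and 29.2 FPKM in WT cells and 13.1 in KO cells at 3 weeks. The KO library was the lower of the pair at each time, and WT 3-week was the highest of the 4. The KO level was 47.1% of WT at 5 days (counting interval 41.2% to 53.7%) and 44.8% at 3 weeks (41.1% to 48.8%). Bcl2 lies on chromosome 1 (106538178 to 106714274, minus strand, GRCm38) and overlaps the antisense gene D630008O14Rik over 33103 bases. No source used here says if strand was taken into account in counting, so reads of that gene cannot be told apart from those of Bcl2.

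Bcl2l1 encodes Bcl-xL, the survival protein that activated T cells are known to induce. Its level was 12.9 FPKM in WT and 10.2 FPKM in KO cells after 5 days, and 38.8 FPKM in WT and 17.9 FPKM in KO cells at 3 weeks. At 5 days the genotypes were close, with KO at 79.2% of WT (68.9% to 90.9%). At 3 weeks KO stood at 46.3% (42.1% to 50.8%), although it was still above both 5-day libraries. The gene lies on chromosome 2 (152780668 to 152831728, minus strand) and overlaps no other annotated gene.

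Mcl1, a short-lived survival protein that T cells are known to need, differed from the other two in direction. It stood at 75.5, 81.8, 69.4 and 99.4 FPKM in the order WT and KO at 5 days, then WT and KO at 3 weeks. KO was 1.08 times WT at 5 days, an interval that includes equality (0.997 to 1.18), and 1.43 times WT at 3 weeks (1.32 to 1.55). On this scale per length Mcl1 made up 75.1%, 83.7%, 50.5% and 76.2% of the summed FPKM of the 3 survival genes in the same order. WT 3-week was thus the only library in which Bcl2 and Bcl2l1 together came near the level of Mcl1 (68.0 and 69.4 FPKM).

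Bax, an effector that moves from the cytosol to mitochondria, was the most abundant of the 10 genes per length in every library, at 193, 162, 233 and 139 FPKM. KO was the lower at both times, at 84.1% of WT after 5 days (79.4% to 89.2%) and 59.7% at 3 weeks (56.3% to 63.2%). Bax shares 915 bases with Gm45808 on the same strand, so reads may have been split between these 2 gene models. Bak1, the effector that resides on mitochondria, was nearly level at 80.9, 88.6, 80.4 and 84.5 FPKM. Its KO to WT ratio was 1.09 at 5 days (1.01 to 1.18) and 1.05 at 3 weeks (0.972 to 1.14). Bak1 lies wholly inside Ggnbp1 on the opposite strand, which stood at 0.332 to 0.854 FPKM. The ratio of Bax to Bak1 within a library was 2.38, 1.83, 2.90 and 1.65, lower in KO at each time.

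Bcl2l11, or Bim, binds all the survival proteins and is a main killer of T cells deprived of cytokine. It measured 8.08 FPKM in WT cells and 10.9 in KO cells after 5 days, and 1.47 FPKM in WT cells and 9.54 in KO cells at 3 weeks. A single library stood apart, WT 3-week, and the other three lay within 8.08 to 10.9 FPKM. KO was 1.35 times WT at 5 days (1.01 to 1.82) and 6.51 times WT at 3 weeks (3.88 to 12.0). The low value in WT 3-week rests on about 16 implied reads, counted for the shortest of its 5 coding transcripts (672 bases, against 5036 for the longest), which gives the widest interval. Values per gene do not show which of these transcripts was used.

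Bmf, a BH3-only protein held on the cytoskeleton in healthy cells, was the least abundant of the 10 genes in every library. Its level was 0.464 FPKM in WT and 2.05 FPKM in KO cells after 5 days, and 0.343 FPKM in WT and 3.71 FPKM in KO cells at 3 weeks, so both KO libraries lay above both WT libraries. KO was 4.42 times WT at 5 days (2.89 to 6.81) and 10.8 times WT at 3 weeks (7.14 to 17.7). These ratios had the greatest size of the 10 genes at each time on the plain scale, with about 28 and 23 implied reads behind the WT values.

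Bbc3, or Puma, a BH3-only gene known as a p53 target, stood at 22.4, 22.7, 12.5 and 22.4 FPKM in the order WT and KO at 5 days, then WT and KO at 3 weeks. It was the most abundant BH3-only member except in WT 3-week, where Pmaip1 was slightly above it (12.9 FPKM). As with Bcl2l11, WT 3-week was the low library and the other three were level. KO was 1.01 times WT at 5 days (0.914 to 1.12) and 1.79 times WT at 3 weeks (1.60 to 2.01). Pmaip1, or Noxa, which mainly binds Mcl1, stood at 10.3, 12.6, 12.9 and 14.0 FPKM, and its counting interval for KO over WT included equality at both times (0.995 to 1.49 and 0.901 to 1.29). Bid, which links death receptors to mitochondria once caspase-8 has cut it, stood at 9.13, 9.57, 8.40 and 8.37 FPKM, with intervals of 0.910 to 1.21 and 0.863 to 1.15. Bid overlaps Bcl2l13 on the opposite strand over 913 bases. These intervals limit counting error and say nothing about the spread between cultures.

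**Figure D2:**
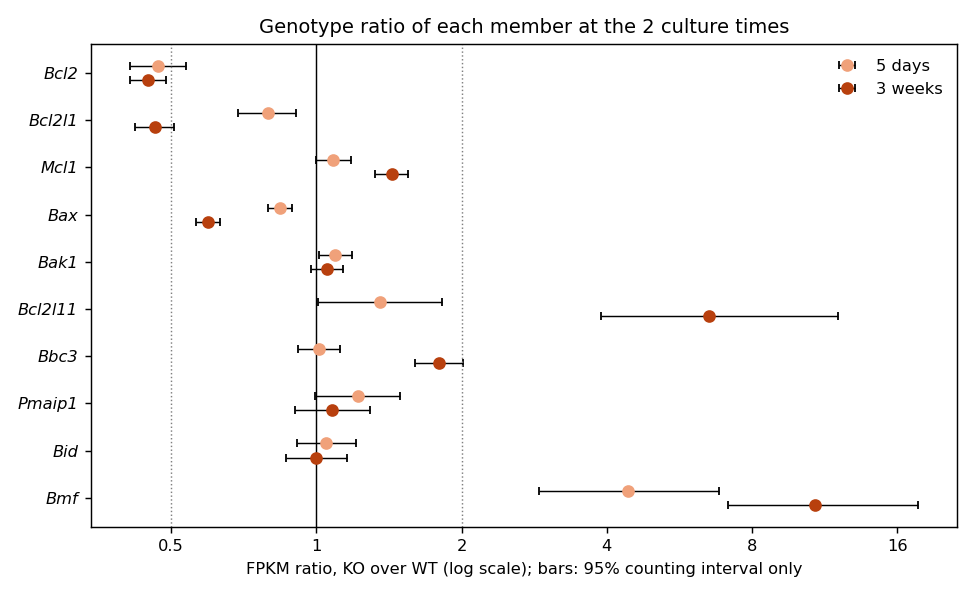
KO over WT ratio of FPKM on a log axis for each gene, at 5 days and 3 weeks, with bars for the 95% counting interval only; dotted lines mark 0.5 and 2. Bcl2 was below 1 at both times and Bmf above 2 at both times, while Bcl2l11 was 1.35 at 5 days and 6.51 at 3 weeks.

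The members were then read against all 10973 compared genes, on the scale log2((FPKM + 1)/(FPKM + 1)), which makes differences of low genes look smaller than they are. The 2-fold rule was a log2 ratio of at least 1 in size. At 5 days 1 of 10 members was at least 2-fold higher in KO, where 2.77% of all compared genes were, and 0 were at least 2-fold lower, where 0.82% of all genes were. The higher member was Bmf (log2 ratio 1.06), and Bcl2 at -0.97 lay just short, with 0.838% of compared genes lying lower. At 3 weeks 2 of 10 were higher, Bcl2l11 at 2.10 and Bmf at 1.81, where 7.97% of all compared genes were. The same number were lower, Bcl2 at -1.10 and Bcl2l1 at -1.07, where 8.19% were. Bcl2l11 had 2.27% of compared genes above it and Bmf 3.09%, while Bcl2 had 6.42% below it and Bcl2l1 6.91%. Bmf passed the filter, a mean of at least 1 FPKM, only through its KO libraries, since both WT values were below 1 FPKM. Its place in these counts thus depended on the group in which it was high. With 10 genes, such counts set nothing apart from the whole. The 3-week values of Bcl2 and Bcl2l1 lay at the 2-fold line: with upper-quartile scaling, which moved the median of all genes from -0.08 to 0.03, they were -0.97 and -0.94, and with median-of-ratios scaling -0.998 and -0.97.

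**Figure D3:**
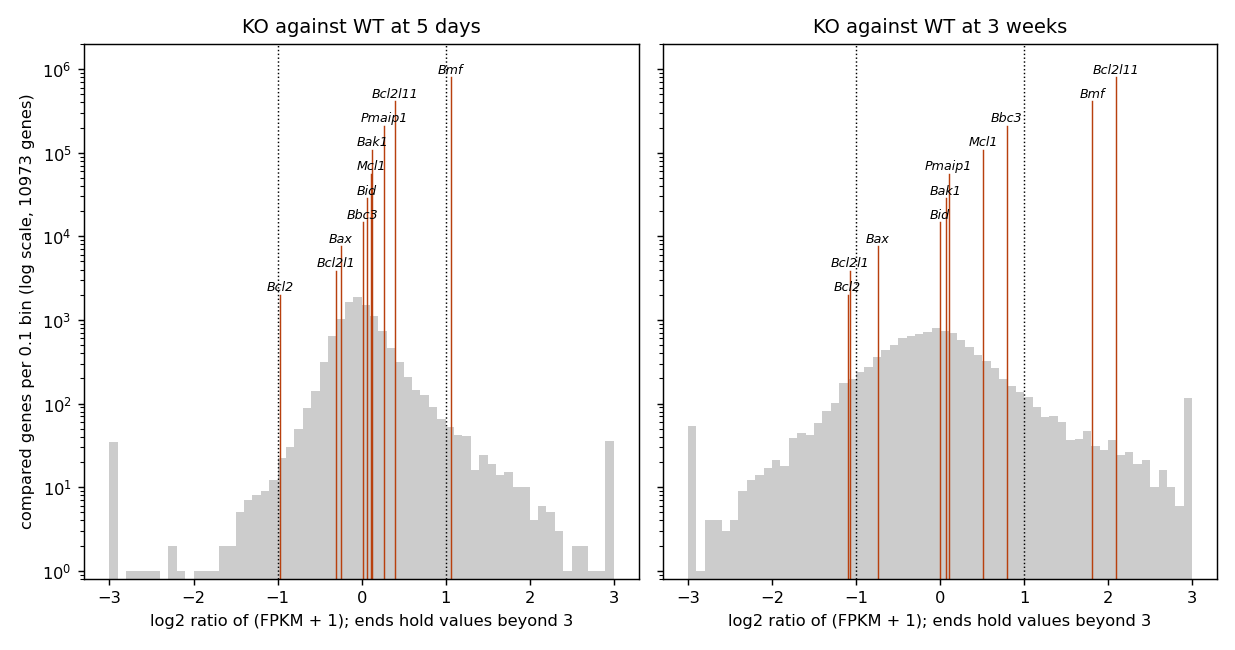
Number of compared genes (log axis) by log2 ratio of (FPKM + 1), KO over WT, with a line for each of the 10 members at its value; dotted lines mark 2-fold and the end bins hold values beyond 3. At 5 days Bcl2 (-0.97) and Bmf (1.06) stood at the edges, and at 3 weeks Bcl2l11 (2.10) and Bmf (1.81) did.

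By sign alone, 6 of 10 members were higher in KO at both times (Mcl1, Bak1, Bcl2l11, Bbc3, Pmaip1 and Bmf), where 33.1% of all compared genes were, and 3 were lower at both times (Bcl2, Bcl2l1 and Bax), where 42.8% were. Several of the 6 differed by little. All 5 BH3-only genes were above 0 at 5 days and 4 of 5 at 3 weeks, with Bid at 0.06 and then -0.00460, a sign that changed to 0.12 with upper-quartile scaling. About 46.4% of all compared genes lay above 0 at 5 days and about 44.5% at 3 weeks. These shares were read at genes that stood close to 0, Bnip3l and Bid. The median log2 ratio of the BH3-only genes was 0.26 at 5 days and 0.79 at 3 weeks, against -0.02 and -0.08 over all genes. For the 3 survival genes it was -0.31 and -1.07. Family genes outside the members did not share this division at 3 weeks. At 5 days and 3 weeks the other death and BH3 genes had medians of -0.11 and -0.44, and the other BCL2-like survival genes -0.26 and 0.43.

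The genotype difference was larger at 3 weeks than at 5 days for most of the members that differed. The same held over all compared genes, of which 394 were at least 2-fold higher or lower at 5 days and 1773 at 3 weeks. Among all genes, Bcl2 had 0.838% below it at 5 days and 6.42% at 3 weeks. Bmf had 2.49% above it at 5 days and 3.09% at 3 weeks, so neither stood further out at 3 weeks. The log2 ratio was greater at 3 weeks by 1.70 for Bcl2l11, 0.78 for Bbc3 and 0.75 for Bmf, and differed by -0.76 for Bcl2l1 and -0.49 for Bax. Bcl2l11 was the single member whose difference of ratios reached 2-fold, which 9.23% of all compared genes did in either direction. Bcl2 was alike at both times, with a difference of -0.13. None of these differences between times was tested.

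Culture time itself was compared within each genotype, although the longer one had also been restimulated, with other cytokines and antibodies. In WT, the longer culture had 2.42 times the Bcl2 level of the 5-day culture (2.21 to 2.65) and 3.00 times the Bcl2l1 level (2.70 to 3.34). Bcl2l11 went the other way, at 18.1% of its 5-day level (9.69% to 30.7%), and Bbc3 stood at 55.7% (49.6% to 62.6%). At the 2-fold rule 2 of 10 members were higher and 1 was lower, where 3.03% and 2.83% of all compared genes were. These WT values and the 3-week genotype ratios share the WT 3-week library, which also stood apart in the Th2 cytokine genes Il5 and Il13, and are not independent of each other. The part of that difference in the results was not tested.

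In KO the longer culture also had more Bcl2, 2.30 times the 5-day level (2.03 to 2.63), and more Bcl2l1, 1.75 times (1.54 to 1.99). Bcl2l11 and Bbc3 stayed near their 5-day levels, at 87.4% (65.9% to 115%) and 98.8% (89.6% to 109%). Bmf was 1.81 times its 5-day level (1.46 to 2.26). By the 2-fold rule 1 of 10 was higher, Bcl2, and 0 were lower, where 4.35% and 4.39% of all compared genes were.

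Levels of survival and BH3-only genes were set side by side within each library, since FPKM is scaled to length. The ratio of Bcl2l11 to Bcl2 was 0.668 in WT and 1.92 in KO at 5 days, and 0.0501 in WT and 0.728 in KO at 3 weeks. KO 5-day was the single library with more Bcl2l11 than Bcl2, and in WT 3-week Bcl2 was 19.9 times Bcl2l11. With Bmf and Bcl2l1 added to either side the ratio was 0.341, 0.814, 0.0266 and 0.427 in the same order. These genes were the ones furthest apart between the genotypes, so the higher ratio in KO restates those differences and is not a separate result. Over all members, the 5 BH3-only genes summed to 50.4, 57.8, 35.6 and 58.0 FPKM and the 3 survival genes to 100.5, 97.8, 137 and 130.5 FPKM. That broader ratio was 0.502, 0.591, 0.259 and 0.444, higher in KO at each time but by less.

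**Figure D4:**
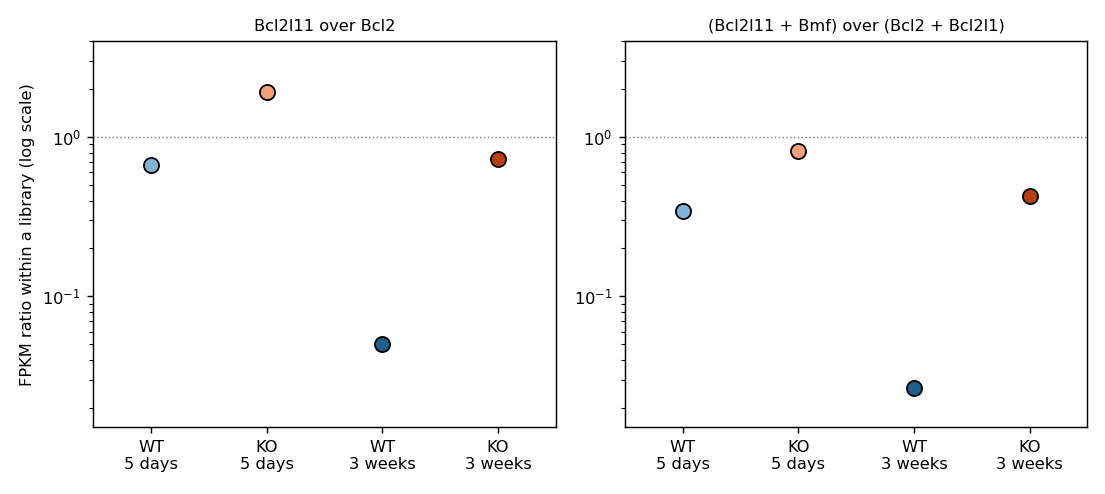
Ratio of FPKM values within each library on a log axis, Bcl2l11 over Bcl2 (left) and Bcl2l11 plus Bmf over Bcl2 plus Bcl2l1 (right), with 1 point per library. WT 3-week was lowest in both panels, at 0.0501 and 0.0266, and KO was above WT at each time. The genes shown were the ones furthest apart between the genotypes, so this direction follows from their choice.

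The promoters of the 4 genes that stood furthest apart are shown so that the pair lower in KO (Bcl2, Bcl2l1) can be read against the pair higher in KO (Bcl2l11, Bmf). Each is the 250 bases before a transcription start in RefSeq (GRCm38.p6), 5′ to 3′ on the gene's own strand, at chr1:106714291-106714540 (minus), chr2:152831729-152831978 (minus), chr2:128125788-128126037 (plus) and chr2:118549687-118549936 (minus). Where RefSeq lists several starts, the start nearest the GENCODE gene start was taken. Capitals mark GC boxes (GGGCGG on either strand) and the FOXO motif (GTAAACA on either strand).
Bcl2: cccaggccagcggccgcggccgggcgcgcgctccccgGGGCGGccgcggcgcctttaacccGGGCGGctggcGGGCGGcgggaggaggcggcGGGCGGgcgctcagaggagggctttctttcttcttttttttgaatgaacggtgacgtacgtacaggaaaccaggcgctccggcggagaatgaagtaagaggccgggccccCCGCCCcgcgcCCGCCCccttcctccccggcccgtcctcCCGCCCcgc
Bcl2l1: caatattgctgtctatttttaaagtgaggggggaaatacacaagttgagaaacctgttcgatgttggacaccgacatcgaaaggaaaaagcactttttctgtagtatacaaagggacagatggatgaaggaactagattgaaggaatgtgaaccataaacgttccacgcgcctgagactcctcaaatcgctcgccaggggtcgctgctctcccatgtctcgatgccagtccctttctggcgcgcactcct
Bcl2l11: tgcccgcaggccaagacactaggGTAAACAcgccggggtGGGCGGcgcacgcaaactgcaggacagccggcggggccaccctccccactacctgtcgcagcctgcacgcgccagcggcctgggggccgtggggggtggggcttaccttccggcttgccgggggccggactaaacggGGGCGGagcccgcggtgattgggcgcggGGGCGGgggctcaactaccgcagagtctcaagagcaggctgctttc
Bmf: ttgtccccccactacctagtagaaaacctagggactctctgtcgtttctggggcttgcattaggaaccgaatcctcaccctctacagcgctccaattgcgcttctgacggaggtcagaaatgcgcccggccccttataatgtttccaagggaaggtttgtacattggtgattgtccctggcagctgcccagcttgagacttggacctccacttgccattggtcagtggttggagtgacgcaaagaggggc
Bcl2 held 7 GC boxes and 36 CpG dinucleotides, and Bcl2l11 held 3 GC boxes and 24 CpG, against a median of 6 CpG over 32851 promoter windows of the same length. Bcl2l1 had 12 CpG and Bmf 8, and neither held a GC box, which 32.7% of all windows did. CpG content did not divide the pair lower in KO from the pair higher in KO. Bcl2l11 held the single FOXO motif among the 9 members with a promoter examined (3.17% of all windows hold it). The STAT motif TTCNNNGAA (7.02% of windows), the E2F forms TTTGGCGC and TTTCGCGC (0.417% and 0.256%) and the cyclic AMP response element TGACGTCA (1.55%), searched on both strands, matched none of the 9, and such a count speaks only of these letters in these windows. Of the FOXO factor genes in the lists, named here after their values were seen, Foxo1 stood at 13.6, 13.0, 5.89 and 10.4 FPKM in the order WT and KO at 5 days, then WT and KO at 3 weeks. Foxo3 stood at 14.7, 13.2, 12.2 and 15.1 FPKM. Both were lowest in WT 3-week, Foxo1 at 43.2% of its 5-day level in WT and Foxo3 at 82.4%. At 5 days both were slightly lower in KO than in WT, whereas Bcl2l11 was higher in KO. A link between these factors and Bcl2l11 was not tested.

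Of 15 other BCL2 family genes, 11 were compared, with 0 at least 2-fold higher or lower in KO at 5 days and 0 higher and 3 lower at 3 weeks, where 7.97% and 8.19% of all compared genes were. Bcl2a1 (A1), a survival gene that T cell activation and NF-kappaB are known to induce, is present in mouse as near-identical copies between which reads can be split, so the single values are uncertain. Summed over Bcl2a1a, Bcl2a1b and Bcl2a1d, it came to 20.3 FPKM in WT cells and 15.9 in KO cells after 5 days, and to 45.5 FPKM in WT cells and 64.0 in KO cells at 3 weeks, so that in both genotypes the longer culture was the higher. Bcl2l2, which encodes the survival protein Bcl-w, stood at 5.55, 7.57, 6.19 and 10.4 FPKM. The lower genes at 3 weeks were Bik, a BH3-only gene (7.36 FPKM in WT and 2.62 in KO), Bnip3, a mitochondrial gene also known for mitophagy (60.3 and 28.9 FPKM), and Bcl2l15 (3.97 and 0.664 FPKM). Of these, Bnip3 lay near the 2-fold line, at a log2 ratio of -1.04. Bad, a BH3-only gene regulated by phosphorylation, stood at 13.9, 20.01, 18.5 and 16.9 FPKM. Bcl2l10 was listed at 0 in every library, and Bok, Hrk and Bcl2l14 did not reach the mean of 1 FPKM.

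The wider pathway was followed over 67 genes in 8 lists, of which 63 were compared. At 5 days 2 were at least 2-fold higher in KO and 0 lower, where 2.77% and 0.82% of all compared genes were. At 3 weeks 3 were higher and 11 lower, where 7.97% and 8.19% of all compared genes were, with a median of -0.36 against -0.08 over all genes. These 14 became 11 in all with either upper-quartile or median-of-ratios scaling. Downstream of the mitochondria, 4 of 13 apoptosome, caspase and mitochondrial genes were at least 2-fold lower at 3 weeks and 0 higher (8.19% and 7.97% of all compared genes). In this list 10 of 13 lay below 0 (median -0.70), where about 55.5% of all compared genes did. Among the lower genes were Diablo, an antagonist of IAP proteins (17.7 and 8.002 FPKM in WT and KO 3-week), Htra2, a mitochondrial protease (17.9 and 8.41 FPKM), and Endog, a mitochondrial nuclease (5.98 and 2.17 FPKM). Diablo and Htra2 lay near the 2-fold line, at log2 ratios of -1.05 and -1.005. The 5 inhibitor of apoptosis genes and the 7 genes of BCL2 protein turnover and sequestration had 0 at 2-fold in either direction at either time.

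On the death receptor route that acts through Bid, 1 of 9 genes was at least 2-fold higher in KO at 5 days, where 2.77% of all compared genes were. At 3 weeks 1 was higher and 1 lower, where 7.97% and 8.19% of all compared genes were. Fasl, the Fas ligand gene, stood at 1.02 FPKM in WT and 4.31 in KO at 5 days, and at 4.29 and 9.07 FPKM at 3 weeks. Tnfrsf1a, the TNF receptor 1 gene, was at 10.1 and 12.1 FPKM at 5 days and at 0.303 and 3.90 FPKM at 3 weeks, and like Bcl2l11 was lowest in WT 3-week. Casp8, the caspase that cleaves Bid, stood at 85.1 FPKM in WT 3-week and 40.2 in KO 3-week, near the 2-fold line (log2 ratio -1.06).

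Among 12 transcription factors known to act on BCL2 family genes, Trp73, a p53 relative, was higher in KO at both times (1.52 and 17.5 FPKM at 5 days, 13.2 and 35.6 FPKM at 3 weeks). Lower by 2-fold at 3 weeks were Myc (75.8 and 14.7 FPKM) and Stat5b, which transmits IL-2 signals (27.7 and 11.8 FPKM). Of 6 survival cytokine receptor genes, Il2ra, the IL-2 receptor alpha chain, was lower in KO at 3 weeks (638 and 152 FPKM), and Il2rb, the beta chain, was higher (171 and 379 FPKM). Over all compared genes, 2.77% were at least 2-fold higher in KO at 5 days, and 7.97% were higher and 8.19% lower at 3 weeks.

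**Figure D5:**
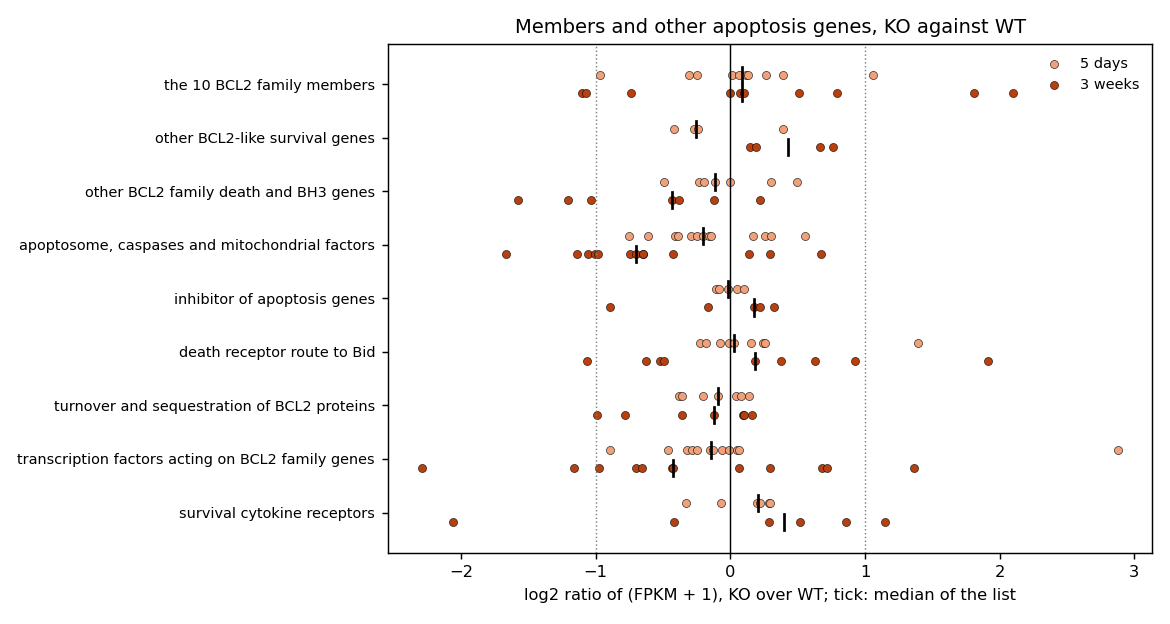
Log2 ratio of (FPKM + 1), KO over WT, for the 10 members and for the compared genes of 8 other lists, at 5 days and 3 weeks, with 1 point per gene, a black tick at each list's median and dotted lines at 2-fold. The apoptosome, caspase and mitochondrial list had medians of -0.20 at 5 days and -0.70 at 3 weeks, and the other BCL2-like survival genes -0.26 and 0.43.

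Bcl2l11 had the largest log2 ratio between genotypes with the pseudocount of 1, although with one of 0.1 Bmf was above it at 3 weeks (3.10 against 2.62). It was compared with 8138 genes for likeness of pattern, by the distance between log2(FPKM + 1) profiles centred on their own mean over the 4 libraries. The nearest were Alox5ap (distance 0.241), Ly6e (0.359), Osbpl5 (0.370), Ier5l (0.415) and Tmem176b (0.435). Alox5ap, an activating protein of leukotriene synthesis, stood at 7.35, 9.92, 1.297 and 7.03 FPKM in the order WT and KO at 5 days, then WT and KO at 3 weeks. Each of the 5 was lowest in WT 3-week, as Bcl2l11 was, which follows largely from picking them for likeness of pattern. With 4 points per gene this is a description only.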

How the data were processed

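RNA of 4 libraries was extracted with TRIzol and made into libraries with a kit that keeps strand, per the labels' protocols. The authors deposited FPKM values per gene symbol; the submitters' processing notes name Cufflinks 2.0.2, TopHat 1.3.2, Bowtie 0.12.8 and the build mm10. Annotation, strand setting and filters were not stated. Of 23746 lines per file, 240 symbols stood on more than 1 line and were summed, and 1 symbol with an unreadable value was left out. The members and lists were chosen with earlier results of these data known. Every member is named, with genes of the other lists at 2-fold between genotypes (up to 4 a list), other BCL2 family genes, Men1 and the 5 genes most like Bcl2l11 in pattern. A further gene that this rule names is not reported here.

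A pseudocount of 1 and a minimum mean of 1 FPKM were used. A model with additive genotype and time terms would leave 1 residual degree of freedom and was not fitted. Depth was inferred from the low FPKM of single-transcript genes in GENCODE M21 (GRCm38, the assembly of mm10), at transcript length less 200 bases: 59.0% to 61.4% lay within 0.05 of a whole read, against 10% if evenly spread. For the intervals, reads were implied from the shortest coding transcript of each gene, which for Mcl1 has 858 bases against 3418 for the longest. Implied reads, and so the intervals, are approximate, and whether an interval that ends near equality includes it can depend on this choice. Python 3.11.15, pandas 2.3.3 and scipy 1.17.1 were used. The steps were also run on simulated counts, drawn and read with the same lengths and depths. That run therefore could not test the inferred depth or the choice of transcript. Promoters came from RefSeq (GRCm38.p6), where 9 of 10 members matched. Alternatives were other pseudocounts, scalings, filters, fold limits and the highest line of a symbol.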

Additional observations from a re-analysis of the deposited data

Results flagged for a closer look

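Of 33 genes examined (the members, the other compared BCL2 family genes and the list genes at 2-fold), 8 had genotype log2 ratios of opposite sign at the 2 times, and these differences were not tested. Over all compared genes 33.1% were higher in KO at both times and 42.8% lower at both, and nearly all the rest had opposite signs. The 8 of 33 lie near that remaining share and do not set these genes apart. The change of the log2 ratio from 5 days to 3 weeks was -0.06655 for Bid, 0.4129 for Bcl2a1a, 1.005 for Bcl2a1b, 0.6128 for Bcl2a1d, -0.6139 for Bad, -1.51 for Bik, 0.2175 for Bnip3l and -1.17 for Htra2. Bik went from 0.30 to -1.21 and Htra2 from 0.17 to -1.005, whereas Bid and Bnip3l were near 0 at one of the times or both. The 3 Bcl2a1 copies are closely related and do not count as separate observations.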

How the results depend on the processing

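Over 40 member ratios and 5 alternatives each, 182 of 200 recomputed log2 ratios moved by no more than the half-width of the counting interval, 18 moved by more and 0 past 2-fold changed sign. The highest-line alternative could not move any member, since each stood on a single line. A changed pseudocount cannot change a sign, so only the scalings could do so. These counts therefore overstate how far the ratios were put to a check. Of all 200, 6 changed sign (Bid at 3 weeks between genotypes, Bak1 and Bbc3 between times in KO), none above 0.07 in size as reported, under upper-quartile or median-of-ratios scaling.

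Member counts at 2-fold moved as follows, and the cause was not tested beyond each setting's own construction. With a pseudocount of 0.1, 1 member (Bcl2) was lower in KO at 5 days in place of 0. With a pseudocount of 5, 0 were higher at 5 days (Bmf 0.37), 1 was higher (Bmf 0.70 lost) and 0 lower at 3 weeks (Bcl2 -0.92, Bcl2l1 -0.93), and 0 differed between times in KO. Upper-quartile and median-of-ratios scaling each left 0 lower at 3 weeks. At 1.5-fold, 1 was lower at 5 days, 3 were higher and 3 lower at 3 weeks (in place of 2 and 2), 4 differed between times in WT (in place of 3) and 3 in KO (in place of 1). A mean filter of 5 FPKM removed Bmf and left 0 higher at 5 days and 1 at 3 weeks.

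Of the other pathway genes, a pseudocount of 5 gave 1 (KO against WT, 5 days, in place of 2), 5 (3 weeks, in place of 14), 3 (between times in WT, in place of 10) and 3 (in KO, in place of 5), and 1.5-fold gave 5, 34, 17 and 18 in that order. A pseudocount of 0.1 gave 10 in KO between times, and the filter of 5 FPKM gave 1 at 5 days. Upper-quartile and median-of-ratios scaling each gave 11 between genotypes at 3 weeks, in place of 14. Over all compared genes, a pseudocount of 0.1 gave 642 at 5 days in place of 394. A pseudocount of 5 gave 178, 898 (in place of 1773), 276 (in place of 643) and 468 (in place of 959) in the same order, 1.5-fold gave 1063, 3980, 1537 and 2443, and the filter of 5 FPKM gave 421 in WT between times. At 3 weeks 874 genes were higher and 899 lower (49.3% higher), against 1036 and 680 (60.4%) with upper-quartile scaling. The fewest implied reads belong to genes counted on a short transcript. About 4 lie behind Fasl in WT 5-day, 12 behind Men1 in KO 3-week and 16 behind Bcl2l11 in WT 3-week. Each count takes the shortest coding transcript, which for Men1 has 295 bases against 2975 for the longest. A longer transcript would imply more reads, so these small counts do not come from depth alone.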
